A study of Mus musculus with 18 samples.

Results

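The platelet-derived growth factor (PDGF) family in the liver comprises 4 ligand genes, Pdgfa, Pdgfb, Pdgfc and Pdgfd, and 2 receptor genes, Pdgfra and Pdgfrb. These 6 genes were taken by name from a table of 16245 genes, and each was detected in every one of 18 liver libraries. Livers came from wild-type male C57BL/6 mice that were given a NASH diet, a high-fat and high-fructose diet that produces fatty liver with inflammation and fibrosis, and kept at 29 °C from 8 weeks of age. There were 3 groups of 6 single-housed mice. Vehicle-treated mice served as controls, GDF15-treated mice received recombinant GDF15 by daily subcutaneous injection, and pair-fed mice were offered the amount of food that the GDF15-treated mice had eaten on the previous day. The labels list doses of 5, 1 and 0.3 nmol for each kg of body weight without assigning one to these 6 mice, and the descriptions of these livers differ on which was given, so no dose is stated here. All groups carried the diet and the warm housing, so no lean or chow-fed liver was compared. Libraries held 16508864 to 35301853 estimated counts, and the 6 genes had 27 to 665 counts each, above a detection floor of 3 counts (0.0850 to 0.182 CPM), which covers counting error only.

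GDF15 is a hormone released under cell stress that curbs appetite through a receptor in the hindbrain, and pair-feeding separates what follows from eating less from what does not. PDGF ligands act as disulfide-linked dimers on 2 receptor tyrosine kinases. The A chain binds the alpha receptor, the B chain binds both receptors, and the C and D chains are secreted with a CUB domain that must be cleaved off before they can bind, C mainly to the alpha receptor and D mainly to the beta receptor. In the liver the receptors mark the mesenchymal cells, chiefly hepatic stellate cells, and PDGF-BB is a classical mitogen for stellate cells that have turned into matrix-producing myofibroblasts. Sources of the ligands in liver include macrophages, endothelium, platelets, biliary epithelium and the mesenchymal cells themselves.

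On the GRCm38 (mm10) build, Pdgfa spans chr5:138976014-138997370 on the minus strand, Pdgfb spans chr15:79995874-80014977 on the minus strand, Pdgfc spans chr3:81036416-81214040 on the plus strand, Pdgfd spans chr9:6168584-6378850 on the plus strand and Pdgfra spans chr5:75152292-75198215 on the plus strand. Because most of the family moved together between groups, as described below, sequences just before RefSeq (GRCm38.p6) starts are shown for called genes. They are given for Pdgfa, Pdgfd and Pdgfra, each as the longest stretch of the window outside annotated exons. The sequences of Pdgfb and Pdgfrb, and the span of Pdgfrb, are not reported here. RefSeq gives Pdgfa a pair of starts, both inside the span above. Capitals mark GGGCGG, the core of the GC box bound by Sp-family factors, or TATAAA, the TATA box, in either orientation.
Pdgfa, upstream start, chr5:138995038-138995194, minus strand: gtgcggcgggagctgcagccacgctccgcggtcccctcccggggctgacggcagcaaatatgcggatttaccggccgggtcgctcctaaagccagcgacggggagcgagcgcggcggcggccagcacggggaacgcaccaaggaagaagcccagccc
Pdgfa, downstream start, chr5:138994282-138994398, minus strand: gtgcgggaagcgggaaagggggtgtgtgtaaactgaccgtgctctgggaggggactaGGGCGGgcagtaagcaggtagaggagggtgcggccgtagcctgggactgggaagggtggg
Pdgfd, chr9:6168236-6168485, plus strand: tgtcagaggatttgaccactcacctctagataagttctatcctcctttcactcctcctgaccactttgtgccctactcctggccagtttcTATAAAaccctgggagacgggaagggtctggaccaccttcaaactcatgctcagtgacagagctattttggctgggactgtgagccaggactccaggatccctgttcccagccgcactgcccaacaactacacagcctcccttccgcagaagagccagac
Pdgfra, chr5:75152001-75152250, plus strand: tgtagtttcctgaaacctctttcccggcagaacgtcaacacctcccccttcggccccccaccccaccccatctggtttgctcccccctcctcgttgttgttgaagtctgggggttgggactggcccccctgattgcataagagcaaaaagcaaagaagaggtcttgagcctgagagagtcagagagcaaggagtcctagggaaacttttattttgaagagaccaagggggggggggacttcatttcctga
The 250 bases before the starts differed in composition. They held 72.4% and 66.4% G and C at the upstream and downstream starts of Pdgfa, 53.6% at Pdgfd and 54.4% at Pdgfra, against a median of 52.4% over 32851 windows of that length. GGGCGG occurred in both Pdgfa windows, counting letters not printed, and in 32.7% of all windows. TATAAA occurred at Pdgfd alone among these 4 windows, and in 12.4% of all windows. It started 160 bases before the RefSeq start of Pdgfd, which, like that of Pdgfra, lies upstream of the span given above. The AP-1 motif TGANTCA, found in 6.75% of all windows, was in none of these 4 windows.

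Levels of different genes can be compared only per transcript length, which was done here as TPM, counts divided by the median length of each gene's reference transcripts and scaled to the same total in every library. In vehicle-treated livers Pdgfa had the highest level of the family at 14.1 ± 2.57 TPM (SD, n = 6), followed by Pdgfra at 5.80 ± 1.78, Pdgfrb at 4.03 ± 1.11, Pdgfb at 2.71 ± 1.04, Pdgfc at 2.26 ± 0.845 and Pdgfd at 1.06 ± 0.495. The lowest Pdgfa value, 11.01 TPM, lay above the highest Pdgfra value, 8.47 TPM, whereas each later pair of neighbours in this order overlapped between mice. The order depended on which transcript was taken as the length. With the longest transcript, Pdgfa remained highest at 20.8 TPM and Pdgfd lowest at 2.30 TPM, but Pdgfrb at 9.49 TPM then stood above Pdgfra at 3.13 TPM, so the order of the receptors is not settled by these data.

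GDF15-treated livers had lower levels of 5 of the 6 PDGF genes than vehicle-treated livers (Pdgfa, Pdgfb, Pdgfd, Pdgfra and Pdgfrb), and of 3 of the 6 than pair-fed livers (Pdgfa, Pdgfb and Pdgfrb). None was called between pair-fed and vehicle-treated livers by DESeq2 or edgeR, and 1 of the 6, Pdgfrb, had an unadjusted p under 0.05 there in DESeq2. Over all genes, DESeq2 called 17.5% of 14667 tested lower and 15.8% higher with GDF15 against vehicle at an adjusted p under 0.05, and 13.8% of 14353 lower and 13.3% higher against pair-fed mice. The median log2 fold change of the 6 genes was −0.83 against vehicle and −0.42 against pair-fed mice, beside 0.02 and 0.01 over the 12883 genes whose mean normalised count reached 10. The falls were moderate. None of the 6 passed the study's added threshold of an absolute log2 fold change above 1, which 5.37% of tested genes passed downward against vehicle and 2.75% against pair-fed mice. These comparisons share the GDF15-treated mice, so they are not independent of each other. In whole tissue, fewer cells of a type and less RNA per cell cannot be told apart.

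**Figure D1:**
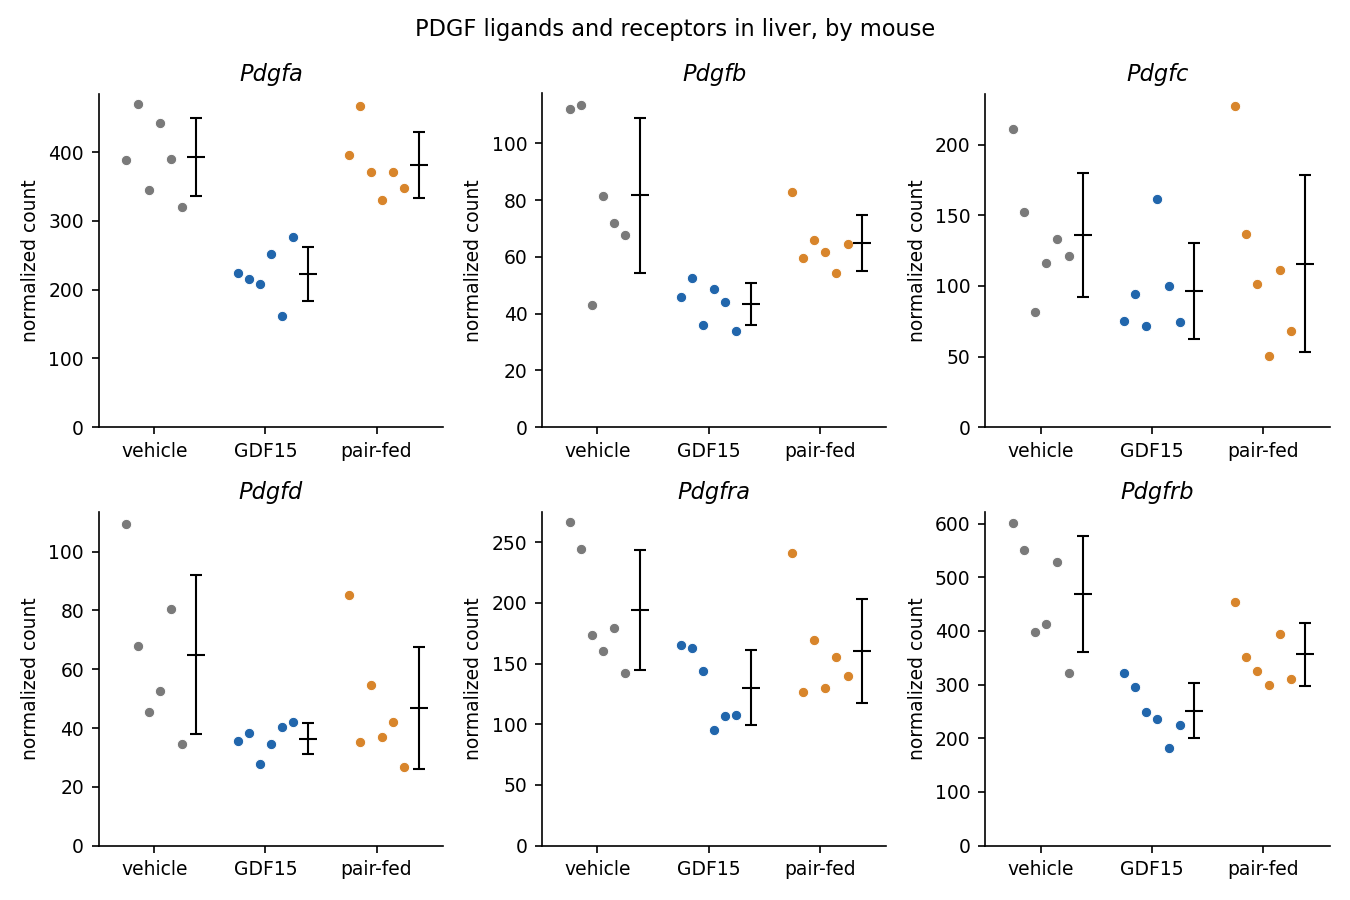
Normalised counts (y axis, each panel from 0) of the 6 PDGF genes in the 18 livers, one point per mouse in replicate order, by group (x axis), with the group mean and SD beside the points in black (n = 6). All 6 GDF15 points of Pdgfa, between 162.4 and 276.0, lie below every vehicle and pair-fed point, and for Pdgfc the 3 groups overlap widely.

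Pdgfa, the A chain and the most abundant ligand, showed the clearest difference. Its normalised count ran from 319.7 through a median of 389.6 to 469.9 in vehicle-treated mice, from 162.4 through 219.2 to 276.0 in GDF15-treated mice and from 330.7 through 371.4 to 467.1 in pair-fed mice. Every GDF15-treated mouse was thus below every mouse of either other group, and the vehicle and pair-fed ranges nearly coincided. The log2 fold change was −0.82 ± 0.12 (SE) against vehicle (DESeq2 adjusted p = 1.31e-09) and −0.77 ± 0.12 against pair-fed mice (adjusted p = 1.72e-08), so that the level fell by 43.3% and fell by 41.4%. Such complete separation in the downward direction was seen in 7.58% of the 12883 genes against vehicle and in 5.62% against pair-fed mice. Pair-fed and vehicle-treated mice differed by −0.05, with a 95% interval from −0.28 to 0.18 on the log2 scale. Pdgfa is one of the signature genes that the study followed in these same livers, so its fall here is not an independent observation.

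Pdgfb encodes the B chain, the ligand for both receptors. In vehicle-treated mice its normalised count ranged widely, from 43.1 through a median of 76.8 to 113.6. In GDF15-treated mice it ranged only from 33.7 through 45.1 to 52.7, and in pair-fed mice from 54.2 through 63.2 to 83.0. The GDF15 values lay wholly below the pair-fed values, and 1 low vehicle-treated mouse kept them from lying wholly below the vehicle values. The log2 fold change was −0.91 ± 0.21 against vehicle (DESeq2 adjusted p = 9.46e-05) and −0.57 ± 0.21 against pair-fed mice (adjusted p = 0.0254). The difference of pair-fed from vehicle-treated mice was −0.34, with an interval from −0.73 to 0.04. The fall against pair-fed mice was a narrow call, since leaving out GDF15 replicate 3 (DESeq2 adjusted p = 0.0614), GDF15 replicate 6 (adjusted p = 0.0663) or pair-fed replicate 1 (adjusted p = 0.0764) ended it.

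Pdgfc, one of the CUB-domain ligands, was the only member with no call in any comparison of all 6 mice a group. Its normalised count went from 81.5 through a median of 127.3 to 211.3 in vehicle-treated mice, from 71.7 through 84.7 to 161.8 in GDF15-treated mice and from 50.3 through 106.3 to 227.3 in pair-fed mice. The groups overlapped, and pair-fed mice spread most, with an SD of 54.2% of the mean. The log2 differences were −0.50 ± 0.30 against vehicle (DESeq2 adjusted p = 0.193) and −0.26 ± 0.30 against pair-fed mice (adjusted p = 0.555). The interval against vehicle, from −1.09 to 0.09, includes falls as large as those of the other ligands. Against pair-fed mice the numbered sets disagreed, with −0.95 among mice numbered 1 to 3 (DESeq2 adjusted p = 0.0359) and 0.55 among those numbered 4 to 6 (adjusted p = 0.259).

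Pdgfd, the other CUB-domain ligand and the member with the fewest reads (27 to 121 estimated counts per library), was called lower against vehicle and not against pair-fed mice. Its normalised count ran from 34.4 through 60.2 to 109.3 in vehicle-treated mice, from 27.6 through 36.9 to 42.2 in GDF15-treated mice and from 26.8 through 39.6 to 85.1 in pair-fed mice. GDF15-treated mice were tightly grouped at the lower end of the range of both other groups. The log2 fold change was −0.84 ± 0.28 against vehicle (DESeq2 adjusted p = 0.0129) and −0.35 ± 0.29 against pair-fed mice (adjusted p = 0.386). Pair-fed mice differed from vehicle-treated mice by −0.49, with an interval from −1.04 to 0.05. The call against vehicle rested in part on the highest vehicle-treated mouse, since without vehicle replicate 1 the log2 fold change was −0.63 (DESeq2 adjusted p = 0.0730).

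Pdgfra encodes the alpha receptor. Its normalised count was 142.1 at the lowest, 176.2 at the median and 266.4 at the highest in vehicle-treated mice, 95.04, 125.8 and 165.5 in GDF15-treated mice, and 126.9, 147.4 and 241.3 in pair-fed mice. All groups overlapped, and 3 GDF15-treated mice lay below every mouse of the other groups. The log2 fold change was −0.57 ± 0.19 against vehicle (DESeq2 adjusted p = 0.0134) and −0.29 ± 0.19 against pair-fed mice (adjusted p = 0.275). The pair-fed difference from vehicle was −0.28, with an interval from −0.66 to 0.09. The call against vehicle was lost without vehicle replicate 1 (DESeq2 adjusted p = 0.0616) or without vehicle replicate 2 (adjusted p = 0.0511), the mice with the highest values. Within the GDF15 group, replicates 1 to 3 had 144.3 to 165.5 and replicates 4 to 6 had 95.04 to 107.3. Replicates 1 to 3 also had the higher mean in the other groups, 228.2 against 160.5 in vehicle-treated and 179.2 against 141.7 in pair-fed mice. The log2 fold change against vehicle was −0.53 among mice numbered 1 to 3 (DESeq2 adjusted p = 0.0930) and −0.64 among those numbered 4 to 6 (adjusted p = 0.00287). Against pair-fed mice it was −0.18 (DESeq2 adjusted p = 0.631) and −0.46 (adjusted p = 0.0490) in these sets.

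Pdgfrb encodes the beta receptor, through which PDGF-BB and PDGF-DD act on stellate cells and pericytes. Its normalised count ran from 320.8 through 471.0 to 600.5 in vehicle-treated mice, from 181.9 through 242.5 to 322.4 in GDF15-treated mice and from 299.4 through 339.0 to 454.6 in pair-fed mice. In 5 of 6 GDF15-treated mice the count was below that of every vehicle-treated and every pair-fed mouse. The log2 fold change was −0.90 ± 0.16 against vehicle (DESeq2 adjusted p = 5.49e-07) and −0.50 ± 0.16 against pair-fed mice (adjusted p = 0.0105). Pair-fed mice lay between, at −0.40 ± 0.16 from vehicle. That difference had an unadjusted p of 0.0117 and an adjusted p of 0.998 in DESeq2, in a comparison where 0% of 16242 genes passed adjustment, 2.65% were lower at an unadjusted p under 0.05 and 0.225% of genes whose mean count reached 10 had groups that did not overlap. It was therefore not a call, and the same comparison had 718 genes at an unadjusted p under 0.05 in either direction.

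**Figure D2:**
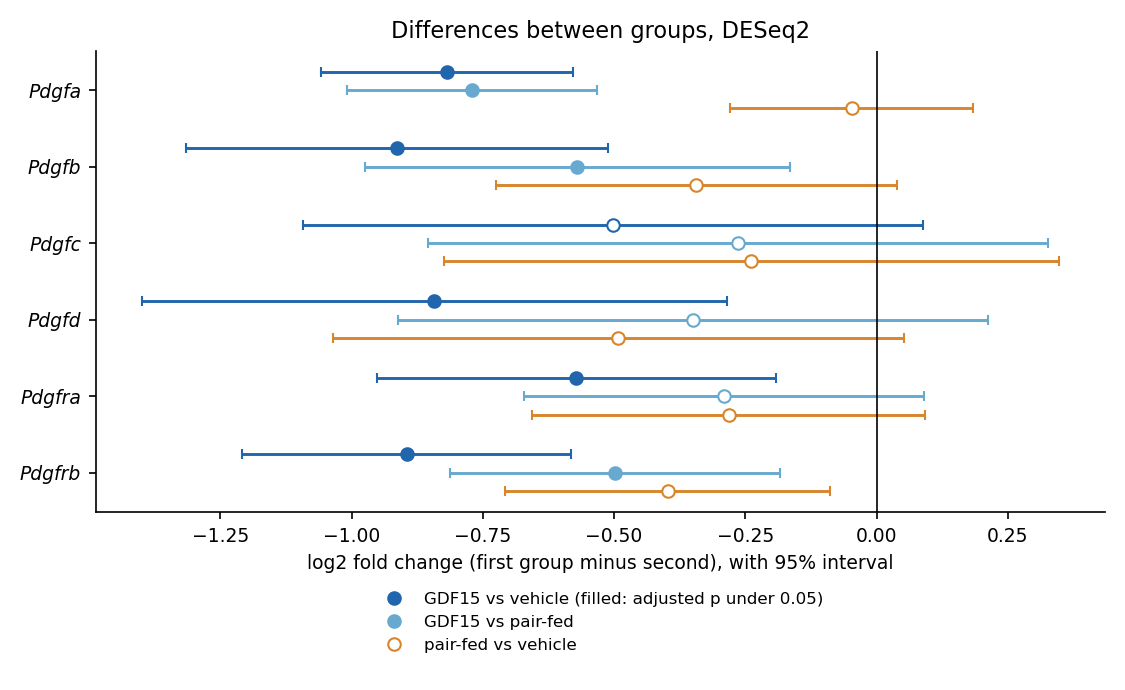
Log2 fold changes (x axis) of the 6 genes (y axis) in the 3 comparisons, from DESeq2, with 95% intervals as bars. Filled points had an adjusted p under 0.05, which holds for 5 genes in GDF15 against vehicle, 3 in GDF15 against pair-fed and 0 in pair-fed against vehicle, and only Pdgfa has a pair-fed estimate close to 0.

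All 6 point estimates of the pair-fed mice lay below vehicle, from −0.05 for Pdgfa to −0.49 for Pdgfd, with a median of −0.31 beside 0.00 over all genes whose mean count reached 10. Not all of these directions were stable. With the 3 smaller pair-fed libraries described next, Pdgfa was at 0.07 and Pdgfc at 0.19 from vehicle, and with the 3 larger ones Pdgfc was at −0.83 and Pdgfd at −0.89. These estimates share the vehicle-treated mice with the GDF15 comparison. The pair-fed libraries fell into 3 smaller ones of 17180057 to 17926397 counts and 3 larger ones of 25047723 to 35301853 counts, a split that replicate numbers 1 to 3 and 4 to 6 also follow. Against the 3 larger libraries alone, Pdgfa was the only member still called lower with GDF15, while Pdgfb (log2 −0.47, DESeq2 adjusted p = 0.220) and Pdgfrb (−0.41, adjusted p = 0.155) were not. Against the 3 smaller ones all 3 calls held. These sets were formed after the data were seen, and each holds 3 of the 6 pair-fed mice.

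Whether the receptors changed relative to each other, or relative to the cells that carry them, was asked with log2 differences within each library, which do not depend on how libraries are scaled. Of 15 exact two-sided permutation tests on 5 such measures, each over 12 mice, none passed after Benjamini-Hochberg adjustment. Pdgfrb exceeded Pdgfra by 1.27 ± 0.16 (SD, n = 6) log2 units of normalised count in vehicle-treated mice, 0.95 ± 0.20 in GDF15-treated mice and 1.17 ± 0.22 in pair-fed mice. GDF15 differed from vehicle by −0.32 (exact p = 0.0195, adjusted p = 0.119) and from pair-fed by −0.21 (exact p = 0.110, adjusted p = 0.414). In 5 of 6 GDF15-treated mice the difference lay below that of the lowest vehicle-treated mouse, 1.17. The exception was GDF15 replicate 4, without which the difference was −0.39 (exact permutation test, adjusted p = 0.0325). A greater fall of the beta than of the alpha receptor thus rested on leaving out that mouse.

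Stellate cells were represented by 15 marker genes, among them Lrat, the retinol esterase of these vitamin A-storing cells, and Reln, a secreted glycoprotein. Of these, 10 of 15 were lower with GDF15 against vehicle and 7 of 15 against pair-fed mice, none was higher in either comparison, and their median log2 fold changes were −0.47 and −0.38. Their summed normalised count ranged from 6920 to 8658 in vehicle-treated mice, 4588 to 7447 in GDF15-treated mice and 7696 to 9097 in pair-fed mice. Relative to the mean of these markers, Pdgfrb showed a log2 difference of −0.49 in GDF15-treated from vehicle-treated mice (two-sided exact permutation p = 0.00866, adjusted p = 0.119), of −0.37 between pair-fed and vehicle (exact p = 0.0238, adjusted p = 0.119) and of −0.13 between GDF15 and pair-fed (exact p = 0.416, adjusted p = 0.567). Pdgfra relative to the same markers differed by −0.17 between GDF15 and vehicle (exact p = 0.229, adjusted p = 0.567), by 0.09 between GDF15 and pair-fed and by −0.26 between pair-fed and vehicle. These sizes depended on how the markers were averaged. With the median over the markers in place of the mean, Pdgfra was at −0.40 in GDF15-treated from vehicle-treated mice (exact permutation test, adjusted p = 0.182) and at −0.53 in pair-fed from vehicle-treated mice (adjusted p = 0.182), with Pdgfrb at −0.72 and −0.63 (exact permutation test, adjusted p = 0.119 in both). The part of the marker change in the receptor change was not tested beyond these differences. Reln fell by 0.32 log2 units against vehicle (DESeq2 adjusted p = 0.0172), and Ecm1, a matrix protein and the most abundant marker of the list, gave 0.18 (adjusted p = 0.336).

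**Figure D3:**
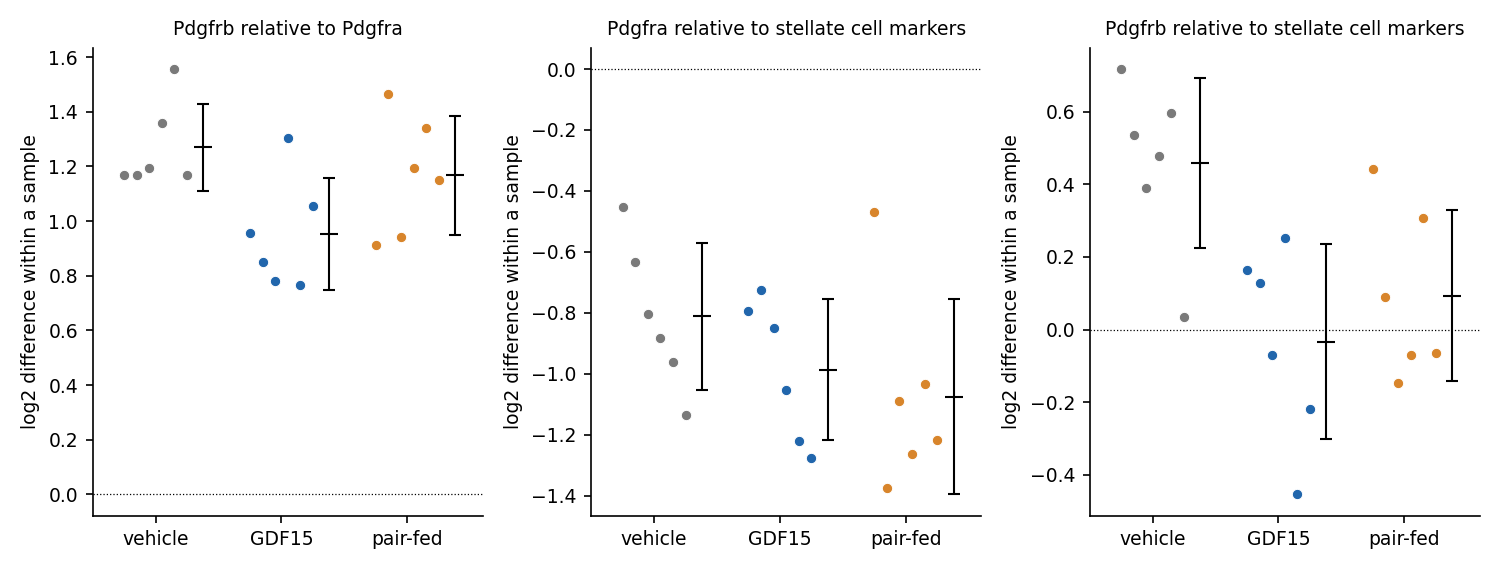
Log2 differences within each library (y axis) of Pdgfrb from Pdgfra, Pdgfra from the mean of 15 stellate cell markers and Pdgfrb from that mean, one point per mouse by group (x axis), with mean and SD in black (n = 6). Vehicle-treated mice have the highest mean in the right panel, with points between 0.04 and 0.72, and the groups overlap in all 3 panels.

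No difference in the balance of paired ligands was detected. Pdgfa exceeded Pdgfb by 2.31 ± 0.40 log2 units of normalised count in vehicle-treated, 2.33 ± 0.40 in GDF15-treated and 2.54 ± 0.26 in pair-fed mice, and GDF15 differed from vehicle by 0.02 (exact permutation p = 0.937, adjusted p = 0.937). The difference of Pdgfc from Pdgfd was 1.09 ± 0.38, 1.33 ± 0.47 and 1.22 ± 0.51 in the same order, with 0.23 between GDF15 and vehicle (exact p = 0.377, adjusted p = 0.567). With SDs of this size, small shifts in the balance of paired ligands were not detectable.

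Across the 18 mice, after subtracting each group's mean from log2 normalised counts, the receptors varied most closely together. Pearson's r was 0.83 between Pdgfra and Pdgfrb, 0.64 between Pdgfd and each of Pdgfc, Pdgfra and Pdgfrb, and 0.59 between Pdgfb and Pdgfc, while the coefficients of Pdgfa ran from 0.13 with Pdgfra to 0.47 with Pdgfrb. These coefficients describe mice that share libraries and scaling between the genes, and carry no test. The genes most like each receptor within groups were ranked among 10883 genes whose mean count reached 50. For Pdgfra they were Bgn (r = 0.94, biglycan, a matrix proteoglycan), Islr (0.89) and Kirrel (0.89), with Adamts10 and Prelp next. For Pdgfrb they were Mrc2 (0.95, a collagen uptake receptor), Col6a2 (0.93, a collagen VI chain) and Islr (0.92), with Mxra8 and Col6a1 next. Without subtracting group means, r was 0.94 for Bgn with Pdgfra and 0.98 for Mrc2 with Pdgfrb.

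The ligands had other neighbours. Pdgfd followed Dcdc2a (r = 0.93), Nedd9 (0.88) and Ptpn14 (0.88), then Igf1r and Scarf2. Pdgfb followed Epcam (0.87, an epithelial adhesion molecule of biliary cells), Far1 (0.86) and Cd72 (0.85), then Syt7 and Ddr1. Pdgfc followed Tmem43 (0.89), Ccdc120 (0.87) and Itgb5 (0.87, an integrin subunit), then Cd2ap and Septin11. Pdgfa followed Mier2 (0.87), Ntmt1 (0.82) and Zc3h12d (0.77), then Serpinb6b and Ajuba. Over all samples without subtraction, r was 0.94 for Dcdc2a with Pdgfd, 0.91 for Epcam with Pdgfb and 0.76 for Tmem43 with Pdgfc, and only 0.43 for Mier2 with Pdgfa.

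**Figure D4:**
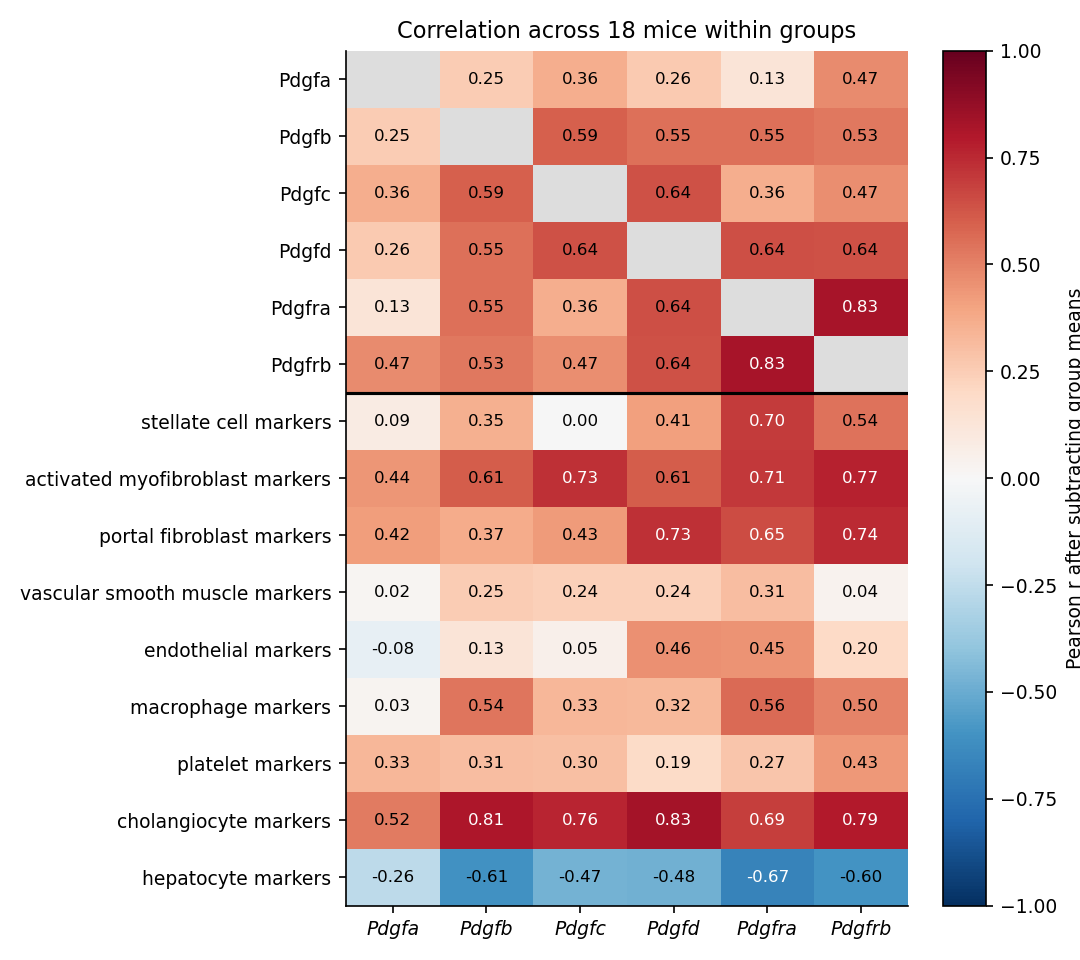
Pearson's r across the 18 mice after subtracting group means, between the 6 genes (columns) and both the 6 genes and the mean log2 level of 9 marker lists (rows), on a colour scale from −1 in blue to 1 in red. The receptors correlate at 0.83 with each other, and cholangiocyte markers reach 0.81 with Pdgfb and 0.83 with Pdgfd while hepatocyte markers are negative for all 6 genes.

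Markers of the cell types that make or receive PDGF were set beside the members, in the same fits. Over all tested genes, 17.5% were called lower and 15.8% higher against vehicle, and 13.8% and 13.3% against pair-fed mice. These lists moved with GDF15 in different directions, and their part in the PDGF differences was not tested. Activated myofibroblast markers showed the largest median, with 10 of 12 lower and 1 of 12 higher in each GDF15 comparison and medians of −1.34 against vehicle and −1.11 against pair-fed mice. Col3a1, a fibrillar collagen chain and abundant in this list, fell by 2.21 log2 units against vehicle (DESeq2 adjusted p = 5.79e-21), Col1a1 fell by 2.51, Col1a2 fell by 1.95 and Timp1, an inhibitor of matrix proteases, fell by 2.99. Fn1, fibronectin, which hepatocytes also secrete, rose by 0.44 and dominated the list's summed count of 36671 to 40679 in vehicle-treated, 37832 to 59071 in GDF15-treated and 37023 to 41533 in pair-fed mice. Within groups, the mean of this list correlated at 0.77 with Pdgfrb and 0.71 with Pdgfra.

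Portal fibroblast markers were lower in 5 of 8 against vehicle and 3 of 8 against pair-fed mice, led by Entpd2, an ectonucleotidase (−1.27 and −1.30), and Eln, elastin (−1.45 and −1.30). Their summed count was 561.7 to 922.9 in vehicle-treated, 309.2 to 408.6 in GDF15-treated and 454.9 to 908.2 in pair-fed mice, so the GDF15-treated mice did not overlap with the others. Of the portal markers not called against vehicle, Thy1 gave 0.20 and −0.41, Msln −0.73 and −0.01, and Gli1 −0.23 and −0.39. None of these passed in either comparison. Vascular smooth muscle markers were lower in 1 of 6 in both comparisons, Smtn (smoothelin, −0.58 and −0.41), and the more abundant Mylk gave 0.12 and 0.11 without passing. Their summed count was 2183 to 2695, 2188 to 2940 and 2177 to 2651 in vehicle-treated, GDF15-treated and pair-fed mice.

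Cholangiocyte markers were lower in 7 of 9 against vehicle but in only 2 of 9, Spp1 and Muc1, against pair-fed mice. Spp1, osteopontin, fell by 1.99 against vehicle and by 1.36 against pair-fed mice, and Muc1 fell by 1.68 and by 1.20. The summed count, mostly Spp1, was 2810 to 9190 in vehicle-treated, 1413 to 2471 in GDF15-treated and 2549 to 6545 in pair-fed mice. Within groups the mean of this list correlated more closely than any other list with Pdgfa (0.52), Pdgfb (0.81), Pdgfc (0.76), Pdgfd (0.83) and Pdgfrb (0.79). For Pdgfra the highest was the activated myofibroblast list (0.71).

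Macrophage markers were lower in 10 of 14 against vehicle and in 8 of 14 against pair-fed mice. Lyz2, lysozyme, fell by 1.01 and by 0.73, Cd5l gave −0.43 and −0.45, and the lipid-associated macrophage genes Gpnmb (−2.60 and −2.17), Trem2 (−1.52 and −1.24) and Itgax (−1.66 and −1.44) fell in both comparisons. The summed count was 7187 to 12423 in vehicle-treated, 5259 to 8924 in GDF15-treated and 6728 to 10382 in pair-fed mice. Endothelial markers were lower in 1 of 14 (Lyve1) and higher in 1 of 14 (Clec4g) against vehicle, and lower in 2 of 14 (Lyve1 and Vwf) against pair-fed mice. The abundant Eng (0.00 and −0.03) and Stab1 (−0.07 and −0.14) did not pass. The endothelial sum was 5817 to 8027, 4534 to 7733 and 6340 to 8179.

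Platelet transcripts were scarce. Of 8 platelet markers 3 had a mean normalised count of at least 10, with 1 lower (Pf4, −0.97, DESeq2 adjusted p = 0.00236) and 1 higher (Itgb3, 0.48) against vehicle and none called against pair-fed mice. Itga2b gave −0.14 and −0.21, and the summed count was 143.2 to 203.2, 143.3 to 195.0 and 155.0 to 182.4 in vehicle-treated, GDF15-treated and pair-fed mice. Hepatocyte markers moved the other way, with 7 of 10 higher and none lower in each comparison. Alb, albumin, rose by 0.42 and 0.41, Cps1, the first enzyme of the urea cycle, by 1.06 and 1.04, and Trf, transferrin, gave 0.05 and 0.21 without passing. The hepatocyte sum was 1981440 to 2405790 in vehicle-treated, 2686020 to 3236060 in GDF15-treated and 1820240 to 2548290 in pair-fed mice.

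Enzymes that process PDGF precursors did not share 1 direction. Of 9 genes, 5 were lower and 3 higher against vehicle, and 4 were lower and 3 higher against pair-fed mice. All tested genes gave 17.5% lower and 15.8% higher against vehicle, and 13.8% and 13.3% against pair-fed mice. Plat, tissue plasminogen activator, which cleaves the CUB domain from PDGF-C, had a normalised count of 82.0 ± 40.9 (SD, n = 6) in vehicle-treated, 18.1 ± 8.57 in GDF15-treated and 49.2 ± 25.6 in pair-fed mice, giving −2.16 against vehicle and −1.42 against pair-fed mice (DESeq2 adjusted p = 1.24e-07 and adjusted p = 0.00122). Plau, urokinase, an activator of PDGF-D, gave −1.22 and −0.84, called in both comparisons. St14, matriptase, was called only against vehicle (−1.39). Plg, plasminogen, made by hepatocytes, rose by 0.57 and 0.56, and the proprotein convertases Furin and Pcsk7 rose by 0.23 and 0.24 against vehicle while Pcsk6 gave −0.20.

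Co-receptors and regulators of the receptors were likewise divided, with 3 of 12 lower and 4 of 12 higher in both GDF15 comparisons. Beside this, 17.5% of all tested genes were lower and 15.8% higher against vehicle, with 13.8% and 13.3% against pair-fed mice. A difference of the list from these shares was not tested. The lower genes of the list were Sparc (−1.14 against vehicle), whose product binds PDGF-B, Dcn (decorin, −0.63) and the receptor kinase Axl (−0.65). The higher genes were Lrp1, an endocytic co-receptor of the beta receptor (0.42 and 0.43), Nrp1 (neuropilin, 0.42), Ptprj, a phosphatase of the beta receptor (0.30), and Slc9a3r1, a scaffold that binds its tail (0.49 and 0.34). The transcript of the beta receptor fell while those of Lrp1 and Ptprj rose in the same whole livers, and a link between them was not tested. The other phosphatase genes of the list, Ptpn1 (−0.12 and −0.13) and Ptpn2 (−0.04 and 0.06), did not pass, nor did Nrp2 (−0.0005 and −0.06).

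Most genes for proteins that carry the PDGF signal into the cell did not pass the test. Of 30 genes, 4 were lower (Src, Nck2, Mapk3 and Pik3r1) and 4 higher (Stat3, Akt2, Sos1 and Map2k2) against vehicle, and 5 were lower (the same 4 and Fyn) and 3 higher (Stat3, Akt2 and Map2k2) against pair-fed mice. Over all tested genes, 17.5% were lower and 15.8% higher against vehicle, and 13.8% and 13.3% against pair-fed mice. The counts in this list lay near those shares and do not set the signalling genes apart. The list's medians were 0.05 and 0.02. Src, the kinase recruited to the activated receptors, had normalised counts of 175.2 ± 56.7 (SD, n = 6) in vehicle-treated, 58.5 ± 13.4 in GDF15-treated and 128.7 ± 30.9 in pair-fed mice, giving −1.58 and −1.12. Stat3 rose by 0.48 and 0.79, and Akt2 by 0.18 and 0.19.

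Genes that respond within hours to growth factors gave 6 of 20 lower and 4 of 20 higher against vehicle and 5 of 20 lower and 4 of 20 higher against pair-fed mice. The shares over all tested genes were 17.5% lower and 15.8% higher against vehicle, and 13.8% and 13.3% against pair-fed mice. Atf3 (−1.37 and −1.22), Egr2 (−1.63 and −1.45), Fosb (−1.44 and −1.51) and Fosl1 (−3.77 and −3.25, with means of at most 5.37 normalised counts) were lower in both, as was Spry1, which like Spry4 encodes an inhibitor of receptor tyrosine kinase signalling (−0.49 and −0.40). Among the higher genes were Junb, Ier2 and Spry4 (0.87 and 0.52). The abundant Ccnd1, cyclin D1 (−0.30 and −0.38), and Dusp6, a feedback phosphatase of ERK (−0.06 and −0.20), did not pass in either comparison.

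The closest relatives of the PDGF receptors provided a comparison within the gene superfamily. Among 7 class III receptor tyrosine kinase genes and their ligands, 3 were lower against vehicle (Csf1r, Csf1 and Flt3) and 2 against pair-fed mice (Csf1r and Flt3), with none higher. For this list and the VEGF list below, the all-gene shares were 17.5% lower and 15.8% higher against vehicle. Against pair-fed mice they were 13.8% and 13.3%. Csf1r, the receptor for macrophage colony-stimulating factor, gave −0.55 (DESeq2 adjusted p = 0.00827) and −0.44 (adjusted p = 0.0451), Csf1 gave −0.44 and −0.25, and Flt3 gave −1.17 and −1.60. VEGF ligands share the cystine-knot fold of PDGF. Genes of VEGF ligands and receptors went both ways against vehicle. Vegfc (−0.61) and the receptor gene Flt4 (−0.69) were lower, and Vegfa (0.55) and the receptor gene Flt1 (0.34) were higher. Against pair-fed mice Vegfc was lower (−0.58) and Vegfa higher (0.39). No gene in these lists was called between pair-fed and vehicle-treated mice.

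**Figure D5:**
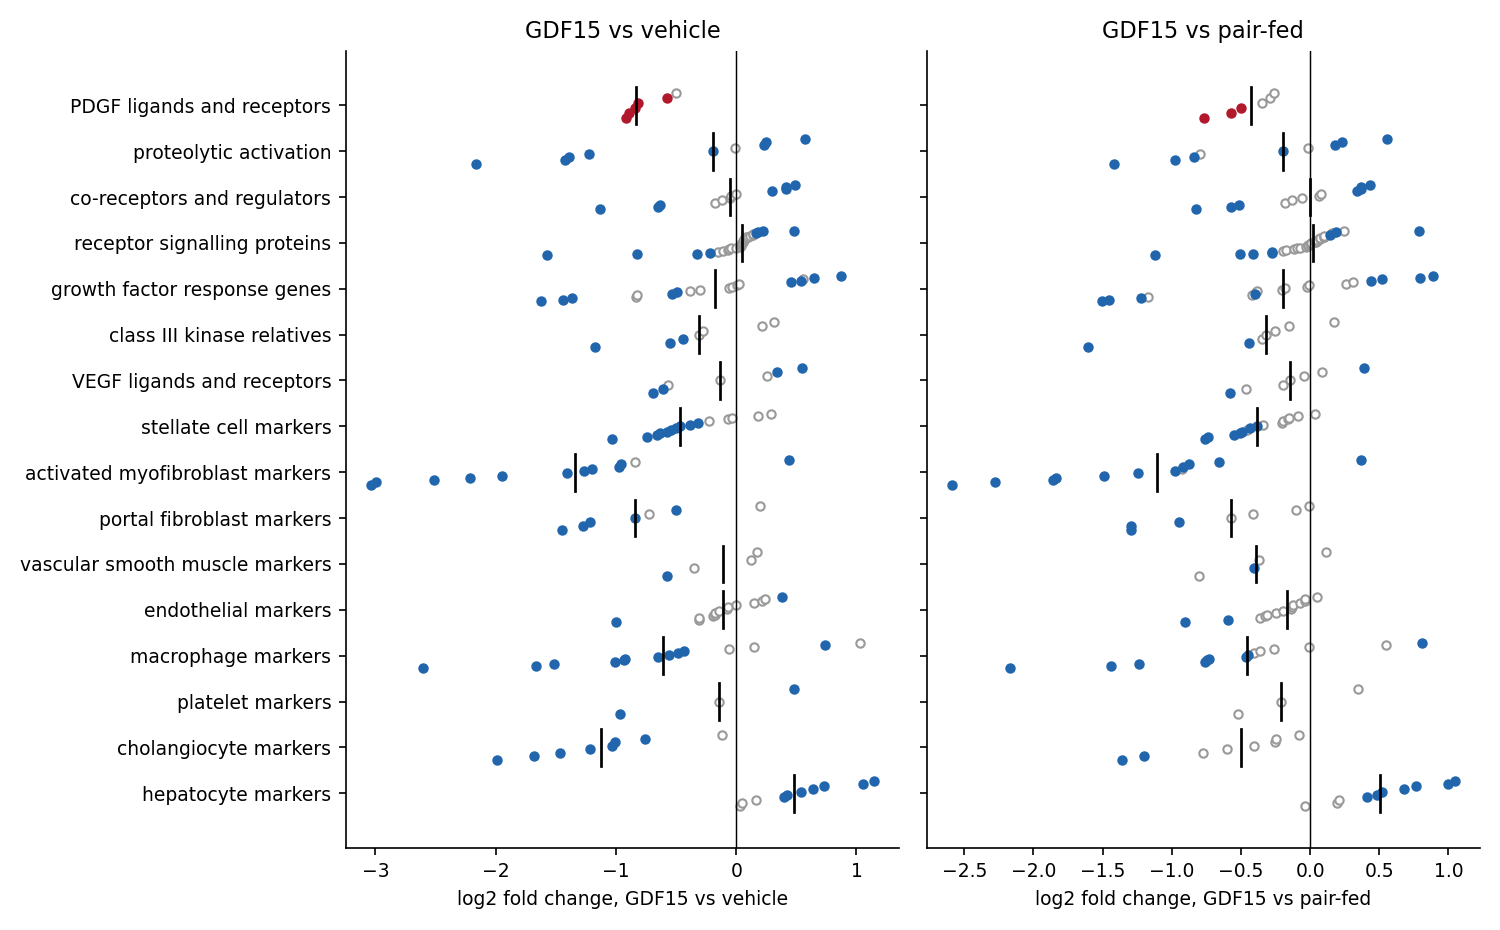
Log2 fold changes (x axis) of every gene with a mean normalised count of at least 10 in the PDGF family, the related pathway lists and the cell type markers (y axis), for GDF15 against vehicle on the left and against pair-fed on the right. Filled points had a DESeq2 adjusted p under 0.05, with the PDGF genes in red, and vertical bars are list medians. The PDGF genes lie between −0.91 and −0.50 on the left, with the mesenchymal and macrophage lists also below 0 and the hepatocyte list above it.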

How the data were processed

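Liver RNA from 18 mice was sequenced on directional libraries. Per the labels, the authors used Trim Galore for trimming and Salmon for quantification, and they deposited estimated counts, which are whole numbers by gene symbol without any scaling between libraries. Versions and transcriptome are not given in the sources used here, and the build is mm10. The table holds genes with a total of at least 5. Groups came from the sample titles.

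Counts were fitted with DESeq2 (1.42.0, R 4.3.3), with all 18 samples, group as the only factor, the Wald test, unshrunken fold changes and Benjamini-Hochberg adjustment over all genes. A call was an adjusted p under 0.05. On simulated data for GDF15 against vehicle (16245 genes) this recovered 97 of 100 genes changed by 1 log2 unit and 100 of 100 changed by 2. There 31 of 228 calls were false, a larger share than the threshold allows, so calls close to 0.05 are less certain than their adjusted p. Changes below 1 log2 unit, such as those of the PDGF genes, were not simulated, so their recovery was not tested. Fewer genes were changed there than were called in the data, so the false share may differ. Within-library differences used log2(normalised count + 1) and exact tests over 924 splits, for which the smallest p is 0.00216. Alternatives were edgeR (4.0.16), TMM scaling, filters, fits of 12 samples, a replicate block, library subsets and omission of each sample.

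The 6 genes and 16 lists were chosen with earlier results of these data known. Named list genes were the 2 most abundant and up to 4 passing an absolute log2 fold change above 1 in both GDF15 comparisons. Genes making up counts of 5 or fewer, and some others given with their values, were named after their values were seen. Some list genes are not reported here. Which libraries shared a sequencing batch is not given in the sources used here.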

Additional observations from a re-analysis of the deposited data

Results flagged for a closer look

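Of 33 sets of 6 values examined for a single value far from the other 5, 2 stood apart, and chance gives about 1.65. Pdgfc had a normalised count of 161.8 in GDF15 replicate 4, whereas the other GDF15-treated mice lay between 71.66 and 100.02. Without that mouse the log2 difference of Pdgfc from pair-fed mice was −0.47 in place of −0.26. Pdgfra had a normalised count of 241.3 in pair-fed replicate 1, whereas the other pair-fed mice lay between 126.9 and 169.2. Without that mouse the log2 difference from pair-fed mice was −0.14 in place of −0.29 for Pdgfra and −0.09 in place of −0.35 for Pdgfd.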

How the results depend on the processing

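The count of PDGF genes called lower, 5 against vehicle and 3 against pair-fed mice, and 0 between pair-fed and vehicle, came out the same with edgeR, TMM scaling, a count filter, no independent filtering and fits of the 12 mice compared. The labels give no pairing by number, and same-numbered mice had a correlation above 0.1 in 2, 3 and 3 of 6 pairs in the 3 comparisons (mean r of 0.004, 0.027 and 0.171), short of every pair. The replicate block gave 5, 3 and 0 as well and changed no call of a single member, with an adjusted p of 8.73e-13 for Pdgfrb against vehicle (DESeq2). Both receptors had higher means in numbers 1 to 3 than in 4 to 6 in all 3 groups. Requiring an absolute log2 fold change above 1 left 0 in each GDF15 comparison. Leaving out each mouse gave 3 to 5 against vehicle, with 3 without vehicle replicate 1, and the 3 larger pair-fed libraries gave 1 against pair-fed mice. Among mice numbered 1 to 3 or 4 to 6, Pdgfc (numbers 1 to 3) and Pdgfra (numbers 4 to 6) gained a call against pair-fed mice. In these sets Pdgfb lost its call against pair-fed mice in both, Pdgfrb in numbers 1 to 3, and against vehicle Pdgfd lost it in numbers 4 to 6 and Pdgfra in numbers 1 to 3. Directions that turned were those of differences with no call among all mice. Pdgfc against pair-fed mice ranged from −0.47 to 0.045 without single mice (0.045 without pair-fed replicate 1), and was 0.55 with numbers 4 to 6, 0.33 with the larger libraries and −0.95 with numbers 1 to 3. Pdgfd gave 0.16 and 0.049 for numbers 4 to 6 and the larger libraries. Pair-fed against vehicle, Pdgfa ranged from −0.11 to 0.0087 and was 0.040 with numbers 1 to 3 and 0.069 with the smaller libraries, and Pdgfc was 0.063 and 0.19 there. The balance of Pdgfrb and Pdgfra against vehicle ranged from −0.39 to −0.26, passing adjustment only without GDF15 replicate 4. That of Pdgfa and Pdgfb ranged from −0.12 to 0.15 against vehicle. That of Pdgfc and Pdgfd ranged from −0.066 to 0.25 against pair-fed mice and from −0.012 to 0.29 between pair-fed and vehicle. The cause of these shifts was not tested beyond the smaller number of mice. Pdgfd and Pdgfb had at most 121 and 124 counts per library.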
